A study of Nicotiana tabacum with 12 samples.

Results

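The genes described here are 40 transcription factor and related regulatory genes of tobacco, Nicotiana tabacum, out of 45034 genes measured in seedlings of the cultivar Petit Havana SR1. They come from the authors' deposited lists of genes higher in induced than in control seedlings, 1 list for 4 h and 1 for 48 h. A listed gene was taken when its annotation held words such as transcription factor, zinc finger, homeobox, MYB, WRKY, NAC domain or bHLH. These words matched 18 genes on the 4 h list, 12% of its 150 annotated genes, and 33 on the 48 h list, 7.57% of its 436. After 2 and 4 of them were left out, 16 members stood on the 4 h list and 29 on the 48 h list, 5 of them on both. The lists hold 166 genes (0.374% of the 4 h table) and 604 genes (1.42% of the 48 h table), and a gene entered when the induced mean was at least 1.5 times the control mean with p under 0.05 before adjustment. The members were thus chosen by their ratio and p at the listed time, so their values there are given as a description with no test.

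Transcription factors bind DNA at promoters and set how strongly other genes are read. Plant factors fall into families named for the fold that touches DNA, and several families are known from epidermal hairs. In thale cress, trichome fate is known to be set by a complex of an R2R3 MYB, a bHLH protein of the GL3 and EGL3 kind and a WD-repeat protein, while MIXTA proteins are R2R3 MYBs that shape conical cells and drive multicellular hairs in snapdragon and tobacco. Annotation words rather than DNA binding made the choice here. The AN1 stress-associated proteins, the CCCH zinc finger, known as a kind of RNA-binding protein, and RLT3, of a family known as partners of chromatin remodelling enzymes, are members by their words.

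AmMIXTA is such a MYB gene of snapdragon, and the seedlings were T2 progeny of stably transformed tobacco that carry it behind a promoter switched on by β-estradiol. The study asked which genes mark the start of glandular trichomes, the secreting hairs, on cotyledons that normally have none, and which mark the later change of cell fate. Polyadenylated RNA of the aerial parts, pooled from 15 seedlings per collection, was sequenced in 4 groups with 3 libraries each. Non-induced and estradiol-induced seedlings were compared at 4 h, when the plants were 7 days old, and at 48 h, when they were 9 days old. All groups carry the transgene. Seedlings with estradiol and no transgene were not analysed here, nor was the level of AmMIXTA, so a response to estradiol and a response to AmMIXTA cannot be told apart. How many transformed lines were used, and how the medium with estradiol was timed, is not given in the sources used here.

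The deposited values are normalised read counts, that is, reads divided by 1 scaling factor per library. Control replicate 1 held 917871 reads at 4 h and 1240033 at 48 h, where the other libraries held 12457701 to 30103266. One read there was worth a value of 0.697 at 4 h and 0.28 at 48 h, against 0.0152 to 0.0322 elsewhere. In that library 12 of the 16 members on the 4 h list had 2 reads or fewer, and 15 of the 29 on the 48 h list. For 42659 of 42659 genes in the 48 h table, control replicates 2 and 3 had the same number of reads. They differ by less than sampling noise, were counted as 1 sample (called the repeated control below) and leave 2 control samples at 48 h. Nothing says that replicates came from separate plantings, so p-values cover only the spread among these libraries, possibly a technical one. The 5 plastid marker genes of green tissue were present in every library, with summed values of 1797 to 2479 in controls and 1011 to 1601 in induced libraries at 4 h, and 1013 to 1237 and 1087 to 1479 at 48 h. Root and nicotine-synthesis names matched 14 genes, none of them at 0 in all libraries. These names came from the RefSeq gene table and from the authors' lists of higher genes. A gene could thus enter by being higher in induced seedlings, and a rise may be partly by choice. The summed values of this root list at 4 h were 29.3 to 46.7 in controls and 67.2 to 134 in induced libraries. At 48 h that list stood at 18.7 to 45 in controls and 18.3 to 37.2 in induced libraries. The trichome list matched 1 gene, non-specific lipid-transfer protein 1-like LOC107775583, whose name comes from the authors' 48 h list and so was chosen for being higher there. It measured 0.839 and 1.11 in 48 h controls and 1.88, 1.64 and 1.31 in induced libraries, and 1.87 to 2.21 against 1.5 to 2.44 at 4 h, with overlap. The part of these marker lists in the results below was not tested.

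The bHLH family was the largest group on the 4 h list, with 6 of its 8 members there, where 16 of all 40 members were. The size of each family among all genes was not counted, so family counts here and below are a description. Of those 6 genes, 4 were annotated bHLH87-like or HEC1-like. In thale cress, bHLH87 and the HECATE proteins such as HEC1 are close relatives, and the HECATE genes are known from the growth of the pistil and the shoot tip. For bHLH87-like LOC107784890 the value at 4 h was 6.97, 4.51 and 8.35 in control replicates 1 to 3 and 12.5, 9.89 and 10.7 in induced replicates 1 to 3. At 48 h it was 3.92 in control replicate 1, 2.8 in the repeated control and 6.92, 4.25 and 6.5 in the induced libraries. Every induced library lay above every control at both times, and the ratio of the group means was 1.67 at 4 h and 1.75 at 48 h. In bulk tissue, a change in the number of cells of a type and a change in RNA per cell cannot be told apart, for this gene or any below.

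A second copy, bHLH87-like LOC107769162, was also on both lists. Its values at 4 h were 1.39, 1.58 and 3.36 in the controls and 4.95, 4.06 and 5.13 in the induced libraries, a ratio of 2.23. At 48 h they were 0.559 and 0.396 against 0.814, 1.04 and 1.45, a ratio of 2.3. The groups did not overlap at either time, although control replicate 3 at 4 h stood well above the other controls.

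The remaining copy, bHLH87-like LOC107822913, and HEC1-like LOC107817904 were on the 4 h list alone. LOC107822913 measured 1.39, 1.03 and 1.1 in the 4 h controls and 2.2, 3.12 and 2.37 in the induced libraries, a ratio of 2.18. HEC1-like measured 4.88, 4.45 and 7.4 against 9.92, 8.69 and 10.6, a ratio of 1.74. Both were again above every control at 48 h, for HEC1-like only narrowly (1.71 against 1.69). LOC107822913 had 0.839 and 0.449 in controls and 1.66, 0.923 and 0.884 in induced libraries (ratio 1.79), and HEC1-like had 1.12 and 1.69 against 2.22, 1.71 and 2.59 (ratio 1.55, or 1.29 without control replicate 1). In the authors' deposited table LOC107822913 had a ratio of 2 at 48 h with an unadjusted p of 0.112. HEC1-like had 1.45 with 0.101 there. LOC107822913 thus missed the 48 h list by its p, and HEC1-like by both its ratio and its p. Just inside the lists by ratio were L10-interacting MYB-like at 4 h (1.53, unadjusted p 0.0311 in the authors' deposited table) and GATA 5-like at 48 h (1.53). Just inside by p was NAC 72-like at 48 h (0.0484 in the same table).

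All 5 genes found on both lists, out of 166 and 604, were members of this set. They make up 3.01% of the 4 h list and 0.828% of the 48 h list. Each comparison has its own controls, and no test of that overlap was made. Being on both lists rested on the authors' counting of the repeated control as 2 samples. With it counted once, 7 of the 29 members on the 48 h list met the ratio and p. These 5 genes were not among them. That count also left fewer control samples for the p-value.

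**Figure D1:**
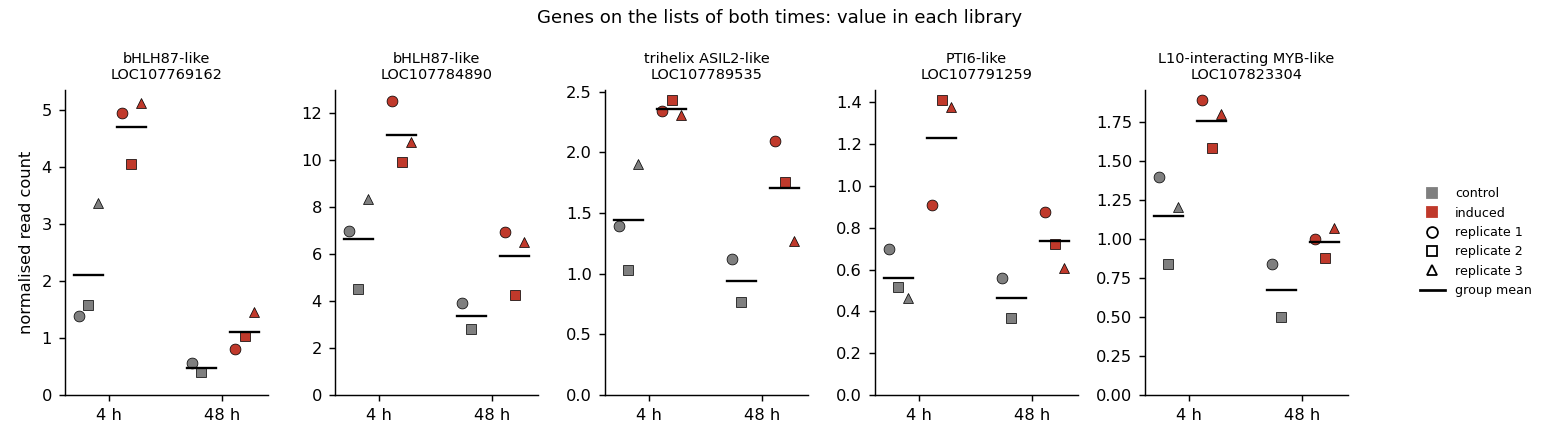
Normalised read count (vertical axis, from 0) in each library of the 5 genes on both lists, by time; grey symbols are control and red symbols induced libraries, shapes give the replicate, the repeated control is drawn once and lines are group means. Within each time every red symbol lies above every grey one, with the lowest red close to the highest grey for L10-interacting MYB-like at 48 h (0.878 against 0.839).

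The other genes on both lists belong to different families. Trihelix ASIL2-like LOC107789535, whose thale cress namesake is known to repress seed maturation genes in seedlings, measured 1.39, 1.03 and 1.9 in controls and 2.34, 2.43 and 2.31 in induced libraries at 4 h. At 48 h it measured 1.12 and 0.766 against 2.1, 1.76 and 1.27. The ratios were 1.64 and 1.81, and the induced libraries were close together at 4 h and spread out at 48 h.

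L10-interacting MYB-like LOC107823304 belongs to a group known in thale cress from antiviral signalling. It measured 1.39, 0.838 and 1.21 in controls and 1.89, 1.58 and 1.8 in induced libraries at 4 h, a ratio of 1.53. The 48 h values were 0.839 and 0.502 against 1, 0.878 and 1.07. Its ratio there was 1.47 with the repeated control counted once, under the 1.5 of the list, and 1.96 without control replicate 1. The lowest induced library at 48 h, 0.878, was close to the highest control, 0.839.

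Ethylene response factors (the ERF and AP2 family) gave 4 members. PTI6 is known in tomato as a partner of the resistance kinase Pto that binds promoters of pathogenesis-related genes, and 2 PTI6-like copies were on the 4 h list. LOC107782024 measured 0.697, 1.32 and 1.13 in 4 h controls and 3.15, 2.18 and 2.46 in induced libraries, a ratio of 2.47. At 48 h it measured 0.559 and 0.845 against 0.688, 0.54 and 0.457, so the induced libraries overlapped the controls there (ratio 0.801).

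PTI6-like LOC107791259, the copy on both lists, measured 0.697, 0.516 and 0.462 against 0.908, 1.41 and 1.38 at 4 h, a ratio of 2.21. At 48 h it measured 0.559 and 0.37 against 0.876, 0.72 and 0.61, a ratio of 1.58. Its value in control replicate 1 rested on 1 read at 4 h and on 2 reads at 48 h. Such copies share an annotation, and how alike their sequences are was not examined. The split of reads between them may be uncertain, here and for bHLH87-like, TAF-1-like, B-2b-like and B-box 23-like genes. The way multiply mapping reads were counted is not given in the sources used here.

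The remaining members on the 4 h list came from 6 families. NAC 73-like LOC107809138, whose thale cress namesake is known from secondary wall formation in fibres, had 0, 4 and 16 reads in the controls and 30, 28 and 20 in the induced libraries. As values these were 0, 0.129 and 0.411 against 0.717, 0.598 and 0.6, a ratio of 3.55 that becomes 2.36 without control replicate 1. Its level was under 1 in every library, and the gene is not in the 48 h table.

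Among the other bHLH genes, bHLH66-like LOC107817147, whose thale cress relatives act in root hair growth, measured 0.697, 0.451 and 0.36 in controls and 1, 0.769 and 1.11 in induced libraries. Its induced libraries at 48 h (0.25, 0.248 and 0.381) overlapped the controls (0.28 and 0.555). bHLH96-like LOC107807804 measured 0.697, 0.902 and 1.21 against 1.72, 1.69 and 1.5 at 4 h, a ratio of 1.75. At 48 h its ratio was 0.956, with overlap.

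DOF2.1-like LOC107809542, of the plant DOF zinc fingers, measured 0.697, 0.935 and 0.668 in 4 h controls and 1.82, 1.3 and 1.14 in induced libraries, a ratio of 1.85. At 48 h the order was turned round, with 1.12 and 0.687 in controls and 0.313, 0.54 and 0.473 in induced libraries, a ratio of 0.49. NF-Y C-1-like LOC107784093, a subunit of the CCAAT-binding complex NF-Y, measured 2.79, 1.8 and 2.67 against 3.63, 3.44 and 4.77 at 4 h, a ratio of 1.63. At 48 h its induced libraries (2.94, 2.7 and 2.5) again lay above the controls (2.24 and 2.48), with the closest at 2.5 against 2.48 and a ratio of 1.15.

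The naming rule takes the genes on both lists and the 12 highest ratios of each list. Members outside it, with GATA 5-like and NAC 72-like above and several below, were named after their values were seen. HAT4-like LOC107795152, a homeodomain-leucine zipper gene whose thale cress namesake responds to shade, measured 6.97, 5.25 and 5.29 in 4 h controls and 9.13, 9.38 and 8.58 in induced libraries. Its ratio was 1.55 at 4 h and 0.918 at 48 h. The B-box zinc fingers on the 4 h list, B-box 23-like LOC107763696 and CONSTANS-LIKE 2-like LOC107823765, of a family known from light and day-length responses, both had a ratio of 1.58 at 4 h. At 48 h their ratios were 1.1 and 1.14, with overlapping groups.

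**Figure D2:**
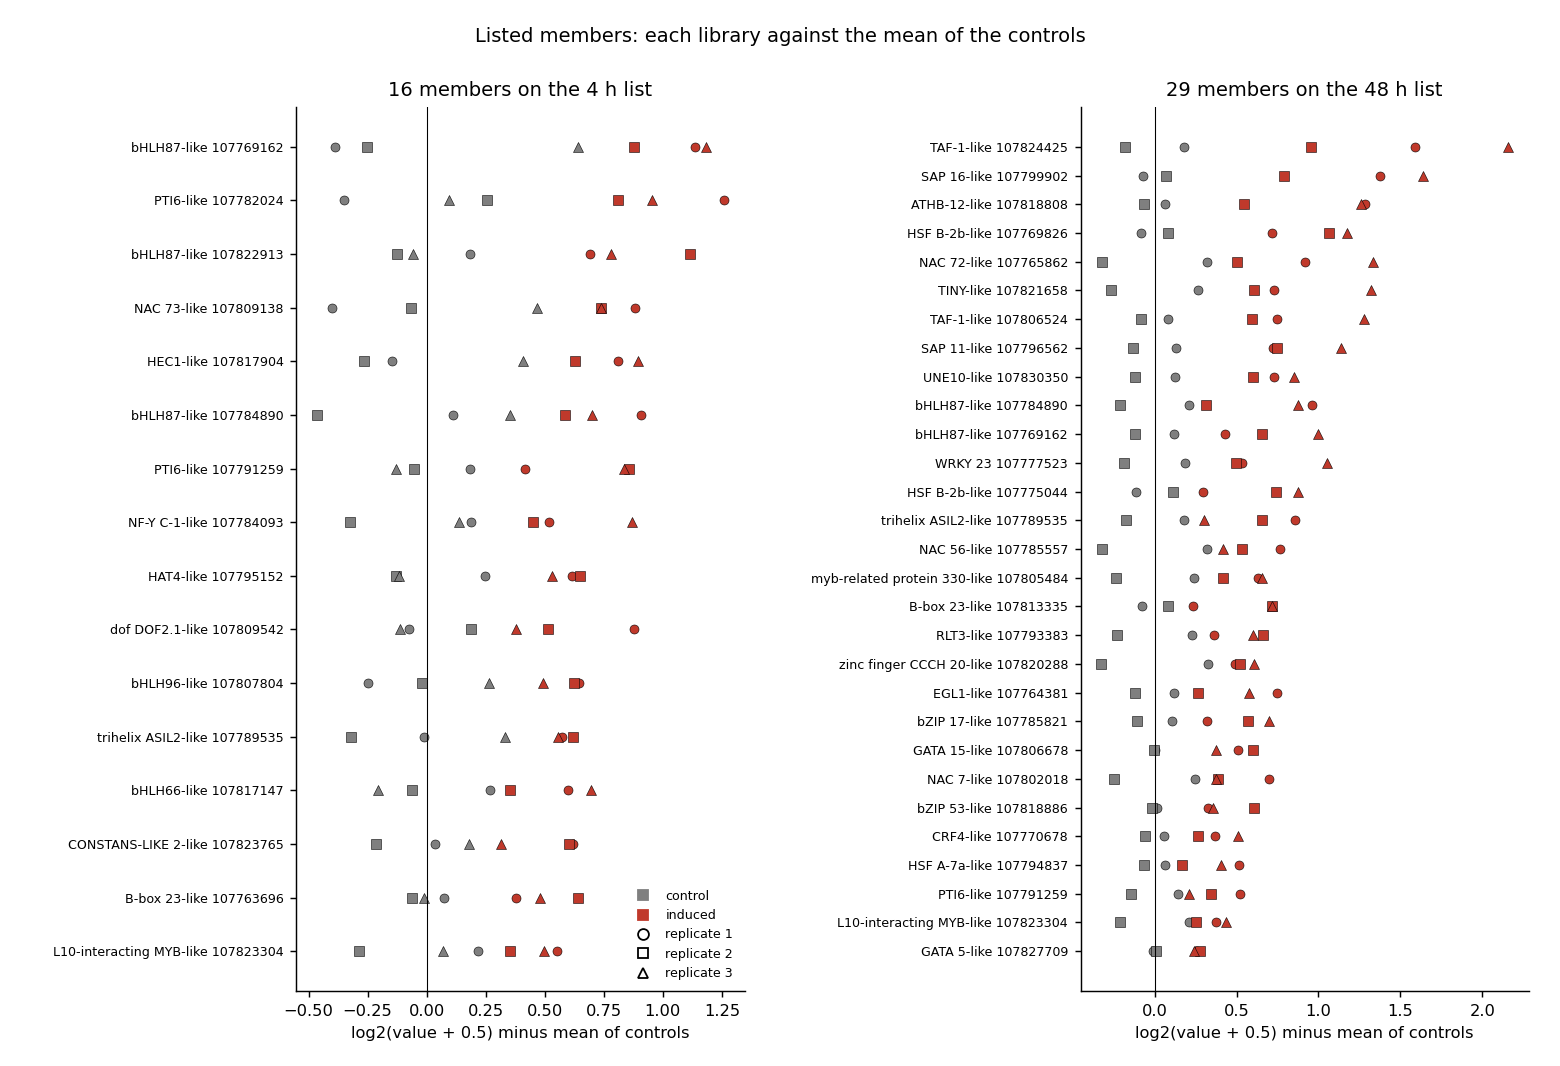
Log2(value + 0.5) of each library minus the mean of the controls of that time (horizontal axis), for the 16 members on the 4 h list and the 29 on the 48 h list, sorted by their difference; names are followed by the digits of the gene identifier, grey is control, red is induced and shapes give the replicate. In all rows the red symbols lie to the right of the grey ones, which the choice of members favoured, and in the 48 h panel the red triangle, induced replicate 3, is often the farthest to the right.

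At the listed time induced and control libraries were fully separate for 16 of 16 members at 4 h, where 4.83% of all genes had every induced library higher, and for 29 of 29 at 48 h, where 10.7% had. The lists required a ratio and a small p, so nothing is read from these counts. Ratios of the members ran from 1.53 to 3.55 with a median of 1.75 at 4 h, and from 1.47 to 4.32 with a median of 2 at 48 h, where the median over all genes was 1 at both times. Without control replicate 1 the ratios ran from 1.55 to 2.52 at 4 h. At 48 h they then ran from 1.51 to 5.02, apart from NAC 56-like and NAC 7-like, whose repeated control held 0 and 2 reads.

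Basic leucine zipper (bZIP) genes had 4 members, all on the 48 h list and none on the 4 h list, where 29 and 16 of all 40 members were. TAF-1 is a tobacco bZIP protein known to bind the G-box, and 2 members carry its name. TAF-1-like LOC107824425 (TAF-2 in the RefSeq gene table) measured 1.4 in control replicate 1 and 0.978 in the repeated control at 48 h, and 4.54, 2.75 and 6.98 in the induced libraries. Every induced library was far above both controls, at a ratio of 4. At 4 h it measured 1.39, 1.58 and 2.57 against 1.41, 0.94 and 2.73, with overlap and a ratio of 0.916.

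TAF-1-like LOC107806524 (TAF-3) measured 2.52 and 2.19 in 48 h controls and 4.29, 3.8 and 6.42 in induced libraries, a ratio of 2.05, and at 4 h its ratio was 1.02. bZIP 17-like LOC107785821, whose thale cress namesake is known from the salt and unfolded-protein responses, had ratios of 1.67 at 48 h and 1.1 at 4 h. For bZIP 53-like LOC107818886, of a group known from responses to low energy and seed maturation, the ratio was 2 at 48 h, on 1 and 10 reads in the controls, and 0.795 at 4 h.

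Homeobox and NAC genes on the 48 h list included relatives of genes known from drought. ATHB-12-like LOC107818808, whose thale cress namesake is induced by abscisic acid and drought, measured 0.28 and 0.211 in controls (1 and 8 reads) and 1.31, 0.585 and 1.28 in induced libraries (42, 26 and 84 reads). Its ratio was 4.32, or 5.02 without control replicate 1, and the gene is not in the 4 h table. NAC 72-like LOC107765862, named for a thale cress gene also known as RD26 and induced by abscisic acid and drought, measured 26.3 and 16.6 against 40, 29.8 and 53.5, a ratio of 1.91.

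The same gene had the largest standard error of the members tested at 4 h. It measured 24.4, 8.67 and 30.5 in controls and 7.93, 6.66 and 13.6 in induced libraries, a ratio of 0.443. Induced replicate 3 was above control replicate 2, so the groups overlapped, and limma gave a log2 difference of -1.02 (SE 0.60, adjusted p = 0.967).

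Other NAC genes on the 48 h list rested on very few reads in the controls. NAC 56-like LOC107785557 had 1 read in control replicate 1 and 0 in the repeated control, against 18, 18 and 22 reads in the induced libraries, and is not in the 4 h table. For NAC 7-like LOC107802018, whose thale cress namesake belongs to the group that directs water vessel formation, the controls held 1 and 2 reads and the induced libraries 18, 16 and 23. The values of NAC 7-like were 0.28 and 0.0528 against 0.563, 0.36 and 0.351. At 4 h it measured 0.697, 0.967 and 0.848 in controls against 0.526, 0.47 and 0.72 in induced libraries, the reverse order apart from control replicate 1 with its 1 read.

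Stress-associated zinc finger proteins with AN1 and C2H2 domains, a family known in rice and thale cress from cold, salt and drought responses, had 2 members on the 48 h list. SAP 16-like LOC107799902 measured 2.24 and 2.51 in controls and 6.95, 4.46 and 8.42 in induced libraries, a ratio of 2.78. SAP 11-like LOC107796562 measured 1.12 and 0.845 against 1.94, 1.98 and 2.74, a ratio of 2.26. Neither was apart from the controls at 4 h, where the ratios were 0.891 and 1.29.

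Heat stress factors gave 3 members, all on the 48 h list, as were 29 of all 40 members. B-2b-like LOC107769826, of the B class known mostly as repressors, measured 0.559 and 0.687 in controls and 1.35, 1.85 and 2.03 in induced libraries, a ratio of 2.79. Its relative LOC107775044 measured 0.559 and 0.74 against 0.907, 1.42 and 1.6, a ratio of 2.02. A-7a-like LOC107794837, of the activating A class, had a ratio of 1.89 on 1 and 8 control reads. At 4 h the ratios of these genes were 0.564, 0.529 and 0.563, with overlap in each and 0 to 38 reads per library.

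Among ERF genes at 48 h, TINY-like LOC107821658, related to the DREB factors of cold and drought responses, measured 1.68 and 1 in controls and 2.5, 2.25 and 4.03 in induced libraries. Its ratio was 2.18 at 48 h and 1.06 at 4 h. CRF4-like LOC107770678, of the cytokinin response factors, had ratios of 1.6 and 1. WRKY 23-like LOC107777523, known in thale cress from auxin responses in roots, measured 0.559 and 0.317 against 0.845, 0.81 and 1.43 at 48 h, a ratio of 2.35, and 0.906 at 4 h.

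The bHLH genes on the 48 h list alone were UNE10-like and EGL1-like. UNE10-like LOC107830350, related to the phytochrome-interacting factors of light signalling, measured 0.28 and 0.159 in controls (1 and 6 reads) and 0.688, 0.585 and 0.793 in induced libraries (22, 26 and 52 reads), a ratio of 3.14. At 4 h its ratio was 1.01, or 1.65 without control replicate 1, whose value there rested on 1 read. EGL1-like LOC107764381 belongs to the bHLH group that partners MYBs in trichome and anthocyanin control in thale cress and petunia. It measured 2.8 and 2.3 in 48 h controls and 4.6, 3.15 and 4.03 in induced libraries, a ratio of 1.54, and at 4 h its ratio was 0.84 with overlap.

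The last members on the 48 h list had smaller ratios or few reads. myb-related protein 330-like LOC107805484, named for a snapdragon MYB known to repress phenolic metabolism, measured 3.36 and 2.27 against 4.57, 3.87 and 4.65, a ratio of 1.55, and its ratio at 4 h was 1.05. B-box 23-like LOC107813335 measured 0.28 and 0.37 in controls and 0.469, 0.855 and 0.854 in induced libraries, a ratio of 2.24, and is not in the 4 h table. GATA 15-like LOC107806678 and GATA 5-like LOC107827709 had ratios of 1.78 and 1.54, and RLT3-like LOC107793383 had 1.78. For CCCH 20-like LOC107820288 the ratio was 1.67, or 2.61 without control replicate 1.

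Values at the time that did not put a gene on a list are the measure that the choice used least, and these were tested. Of the 24 members on the 48 h list alone, 21 were in the 4 h table and 12 passed the filter on low values (a value of at least 1 in 3 libraries). By limma 0 of these 12 were higher and 0 lower at an adjusted p of 0.05 over all genes, where 0.352% of 37238 genes were called, 0.0967% higher and 0.255% lower. At an unadjusted p under 0.05, 0 were higher and 1 lower, where 2.93% and 2.81% of all genes were. edgeR and DESeq2 also called 0, and the median log2 difference was -0.07 (5 above 0 and 7 below) against 0.02 over all genes. With libraries paired by their description number, 0 of the 12 were called as well, while the calls over all genes went from 131 to 376. Not being on the 4 h list limits how many could be higher there.

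The member with an unadjusted p under 0.05 was CCCH 20-like LOC107820288. It measured 2.09, 1.29 and 2.16 in 4 h controls and 1.12, 0.897 and 1.23 in induced libraries. Its log2 difference was -0.55 (SE 0.22, unadjusted p 0.0217, adjusted p = 0.734 by limma). It was also the 1 of the 21 measured members with every induced library lower at 4 h, where 5.53% of all genes were, and 0 had every induced library higher. Without control replicate 1 the counts were 2 lower and 1 higher, against 9.87% and 9.43% of all genes.

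In the other direction, 10 of the 11 members on the 4 h list alone were in the 48 h table and 5 passed the filter. By limma 0 were higher and 0 lower, where 0.0127% of 31565 genes were called, 0.0095% higher and 0.00317% lower. At an unadjusted p under 0.05, 1 was higher and 0 lower, where 3.45% and 2.45% of all genes were. edgeR and DESeq2 called 0, and the median log2 difference was 0.14 against 0.02 over all genes. HEC1-like LOC107817904 was that gene, with a log2 difference of 0.49 (SE 0.21, unadjusted p 0.0311, adjusted p = 0.781 by limma). Of the 10, 3 had every induced library higher (HEC1-like, bHLH87-like LOC107822913 and NF-Y C-1-like) where 10.7% of all genes did, and 1, DOF2.1-like, had every induced library lower where 11.1% did. Without control replicate 1 these counts were 4 and 3, against 25.9% and 26.6%. Not being on the 48 h list limits how many could be higher there.

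**Figure D3:**
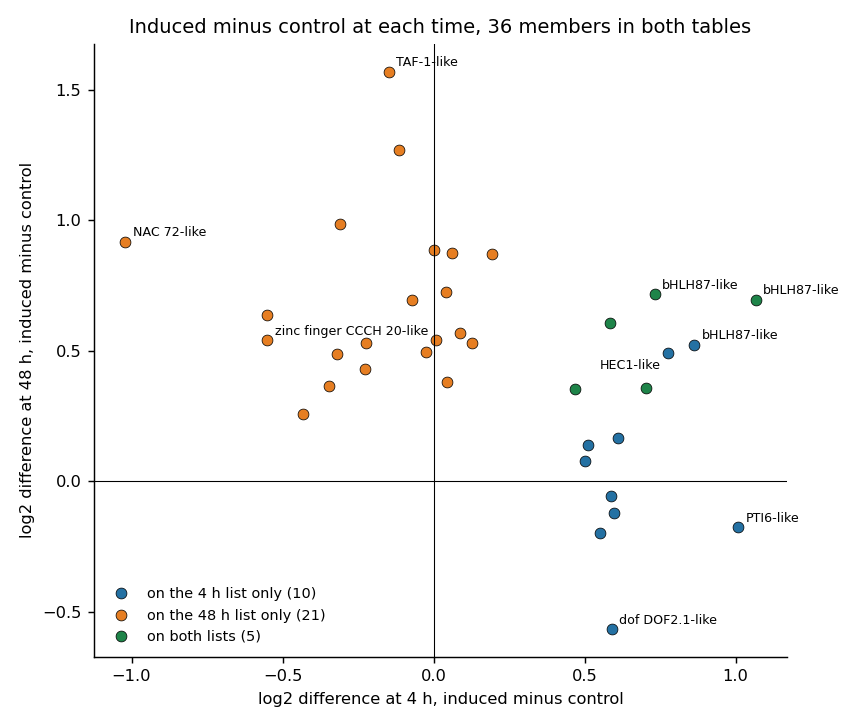
Log2 difference between induced and control, on log2(value + 0.5), at 4 h (horizontal) and at 48 h (vertical) for the 36 members measured at both times, coloured by list. The 21 members on the 48 h list alone lie above 0 on the vertical axis by choice and on both sides of 0 at 4 h, from -1.02 for NAC 72-like to 0.19 for SAP 11-like, and among the 10 on the 4 h list alone HEC1-like and bHLH87-like are highest at 48 h (0.49 and 0.52).

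The order of libraries within a group can bear on which genes met the lists' ratio and p, so it is given as a description. At 48 h induced replicate 3 was the highest induced library for 16 of the 29 (55.2%, against 32.9% of all genes) and induced replicate 2 the lowest for 14 (48.3%, against 33.7%). Control replicate 1 was the higher of the 2 controls for 24 of the 29 (82.8%, against 48.4%). The authors' ratio counted the repeated control as 2 samples, so a low value there favoured listing. TAF-1-like LOC107824425, NAC 72-like, TINY-like and WRKY 23-like all had their highest value in induced replicate 3. At 4 h induced replicate 1 was highest for 7 of the 16 listed members (43.8%, against 30.3% of all genes) and induced replicate 2 lowest for 8 (50%, against 35.1%).

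For several members the controls of the 2 ages differed by as much as control and induced seedlings did. Here reads were scaled across both times by TMM to CPM, a scale relative to library size, and the values are a description because age, day of collection and the separate tables cannot be told apart. RLT3-like LOC107793383 went from 8.55, 9.52 and 8.33 CPM in the 7-day controls to 2.38 and 1.34 in the 9-day controls, a log2 change of -2.01. Its induced libraries at 48 h, 2.75, 3.7 and 3.51 CPM, lay between the controls of both ages.

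HEC1-like LOC107817904 went from a mean of 8.42 CPM to 3.98 in controls and from 14.6 to 6.17 in induced libraries. The bHLH87-like gene LOC107769162 went from 3.19 to 1.35 in controls and from 7.08 to 3.12 in induced libraries. For both, the induced libraries at 48 h were thus below those at 4 h while remaining above the controls of their own age.

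Other members were higher in the older controls. TAF-1-like LOC107806524 went from a mean of 1.84 CPM to 6.67 in controls (log2 change 1.73), and from 1.87 to 13.7 in induced libraries. SAP 16-like went from 2.34 to 6.72 (1.37) in controls and from 2.08 to 18.8 in induced libraries. NAC 72-like went from 32.1 to 60.8 (1.06) in controls and from 14.1 to 117 in induced libraries. The 9-day controls were all higher than the 7-day controls for 11 of the 36 members (30.6%, against 18.6% of 41261 genes) and all lower for 7 (19.4%, against 21%).

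**Figure D4:**
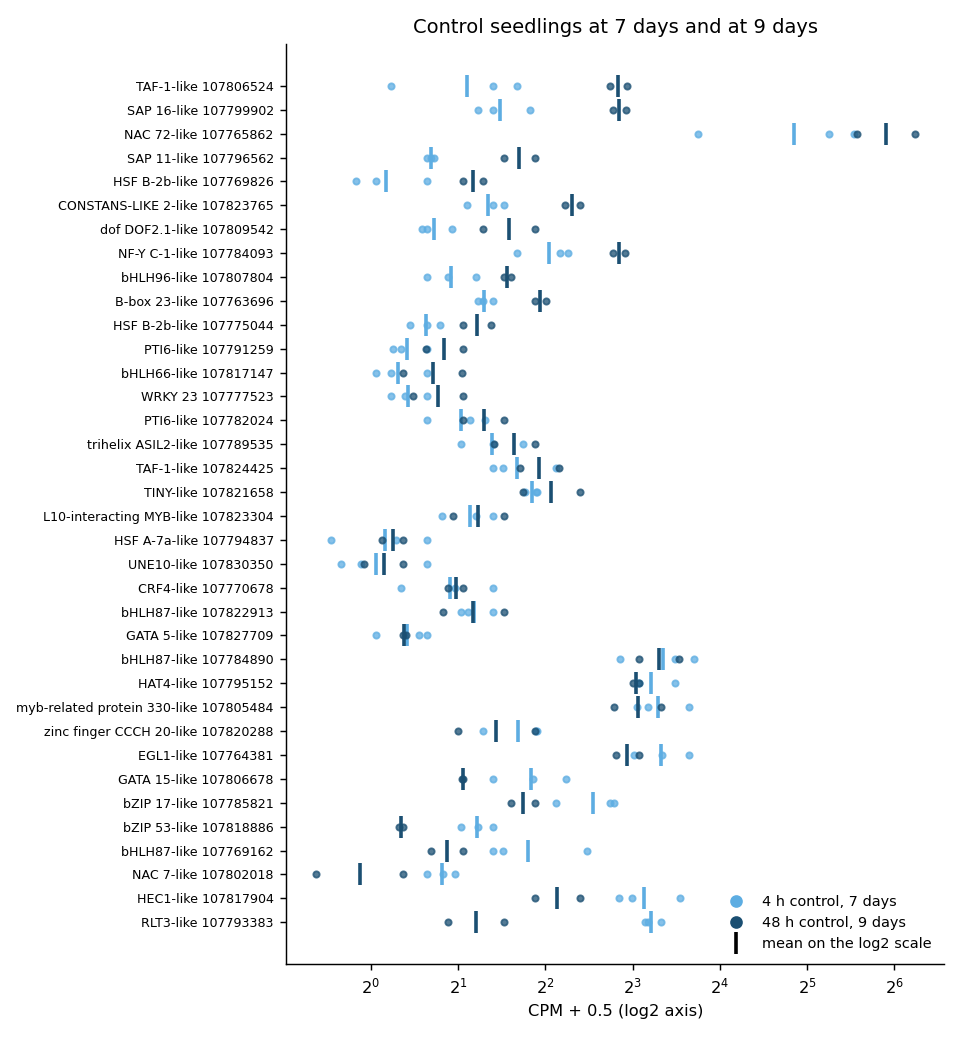
CPM + 0.5 on a log2 axis in each control library at 7 days (light) and 9 days (dark) for the 36 members measured at both times, sorted by the change in the mean on that scale; names are followed by the digits of the gene identifier and upright ticks are means. TAF-1-like LOC107806524, SAP 16-like and NAC 72-like stand at the top with higher values at 9 days, and HEC1-like and RLT3-like at the bottom with lower ones.

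Genes of the same families that were not on a list were found by the synonyms of the RefSeq gene table, which names 32 such transcription factors. At 4 h 25 of the 30 measured passed the filter, and by limma 0 were higher and 0 lower. At an unadjusted p under 0.05, 1 was higher, NtERF1 LOC107825044, an ethylene response factor (log2 difference 1.01, SE 0.39, adjusted p = 0.813). The median was 0.03. At 48 h 24 of the 31 measured passed it, with 0 higher and 0 lower, 0 at an unadjusted p under 0.05 and a median of 0.07. Every induced library was higher at 48 h for 4 of the 31 and lower for 2, against 10.7% and 11.1% of all genes. At 4 h these counts were 1 and 3 of the 30, against 4.83% and 5.53%.

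Relatives of the EGL1-like and TAF-1-like members were among them. That table gives LOC107826976 the synonym JAF13b and EGL1-like the synonym JAF13a. At 48 h JAF13b measured 1.68 and 1.66 in controls and 0.814, 1.53 and 1.33 in induced libraries, a log2 difference of -0.36 (SE 0.22, adjusted p = 0.924 by limma). Its induced libraries were all below the controls, as for 11.1% of all genes. Those of EGL1-like were all above, which its choice favoured. The difference between the copies was not tested, since EGL1-like was chosen for its ratio.

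TAF1 LOC107819448, a bZIP gene named by its synonym in that table, measured 1.68 and 1.48 in 48 h controls and 2.1, 2.32 and 7.85 in induced libraries. All 3 induced libraries were higher, as for 10.7% of all genes, with induced replicate 3 far above the others. In both TAF-1-like members induced replicate 3 was also the highest, by a smaller margin. Its log2 difference of 0.92 (SE 0.65, adjusted p = 0.953 by limma) did not pass. At 4 h it measured 1.39, 1.22 and 2.16 against 2.06, 0.983 and 2.13, with overlap.

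**Figure D5:**
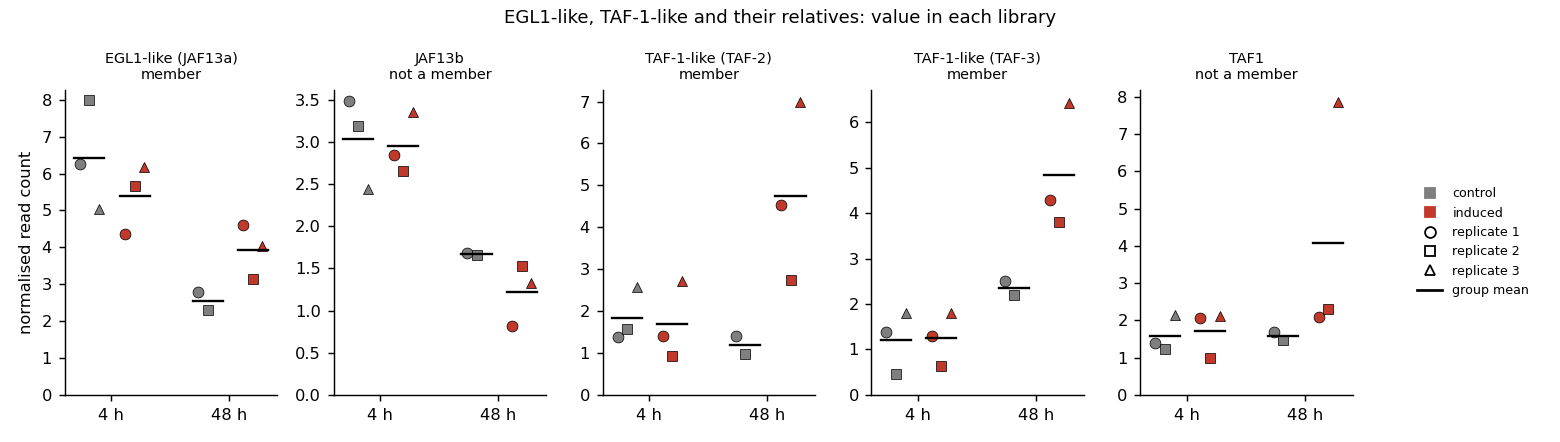
Normalised read count in each library (vertical axis, from 0) of EGL1-like with JAF13b and of both TAF-1-like members with TAF1, by time; grey is control, red is induced, shapes give the replicate and lines are group means. At 48 h the induced libraries lie above the controls in EGL1-like, TAF-2, TAF-3 and TAF1 and below them in JAF13b, and the triangle of induced replicate 3 is the highest in TAF-2, TAF-3 and TAF1.

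Membership itself changed with the way the controls were counted. Each change below also left fewer control samples for the p-value. Leaving out other control libraries or an induced library was not tried for this count. With control replicate 1 left out, 8 of the 16 members on the 4 h list still met the authors' ratio and p, and all 16 met the ratio. Over all genes the number meeting both went from 166 to 324. With the repeated control counted once, 7 of the 29 members on the 48 h list met both, while the number over all genes went from 604 to 234. The genes on both lists were not among those 7. The ratio alone was met by 28 of the 29, the exception being L10-interacting MYB-like.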

How the data were processed

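RNA-seq of 12 libraries was used, with groups taken from the sample titles. The authors deposited 1 table of all genes per time with a signal per library (normalised read counts), and 1 shorter list per time with a ratio and a p-value. From the values, the deposited ratio is the linear fold of the group means and the deposited p-value is unadjusted. The submitters' processing notes name edgeR without a version. Which aligner, counter, build and annotation they used is not given in the sources used here. Within a library all values are multiples of 1 smallest step, and division by that step recovered whole reads in 100% of values (tolerance 0.01), so 1 read sets the precision. Genes with an inflated entry (above 5000 and over 20 times the gene's median) were left out, 4 at 4 h and 14 at 48 h. The lists' 12 columns of per-sample values were not used.

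Each time was fitted within its own table by limma 3.58.1 (trend, robust, R 4.3.3) on log2(value + 0.5), over genes with a value of at least 1 in 3 libraries (37238 and 31565 genes), with Benjamini-Hochberg adjustment and calls at 0.05. Differences on this scale understate those of low genes. edgeR 4.0.16 and DESeq2 1.42.0 on the recovered reads were alternatives, with other pseudocounts, no filter, TMM scaling, a replicate block, 1 fit of both times and each library left out. The fit was also run on simulated counts, with the same spread setting for every gene and no pairing of libraries. Those settings differ from these data, so nothing is drawn from that run here. CPM values were computed here from the deposited values. The members, families and marker lists were chosen with earlier results of these data known. Named by rule were the genes on both lists and the 12 highest ratios of each list in the authors' deposited table.

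The labels number each library once in the title and again, differently, in the description. Libraries with the same description number deviated together at 4 h (r = 0.18, 0.22 and 0.16 over 19703 genes), so the block there used that number. Names came from the authors' annotation and the RefSeq gene table of tobacco, where 39 of the 40 members were found; its coordinates were not used. Protein and promoter sequences were not used here.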

Additional observations from a re-analysis of the deposited data

Results flagged for a closer look

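For 2 members every induced library lay on one side of the controls at 4 h and on the other side at 48 h. The side at the listed time was favoured by the choice. At the other time every induced library was lower for 1 of 21 members at 4 h, against 5.53% of all genes. At 48 h this held for 1 of 10, against 11.1%. DOF2.1-like (LOC107809542), a DOF zinc finger gene, had a log2 difference of 0.59 at 4 h and of -0.56 at 48 h. CCCH 20-like (LOC107820288), a CCCH zinc finger gene, had -0.55 at 4 h and 0.54 at 48 h. The difference between the times was not tested for either gene, since each was chosen for being higher at 1 of the times, and 1 read in control replicate 1 is worth 0.697 at 4 h and 0.28 at 48 h. Groups held 3 libraries or fewer, so single libraries were not tested for standing apart.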

How the results depend on the processing

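The counts of members called at the time that did not list them were 0 in every alternative run. This outcome was close to fixed in advance. Only 12 members at 4 h and 5 at 48 h were tested in the main run, and few of all genes were called. Absence from a list also limits how many can be higher. Over all genes, the 131 calls at 4 h became 376 (161 higher, 215 lower) with a replicate block by description number, 242 with a replicate block by title number and 52 with both times in 1 fit, and ranged from 85 (without control replicate 1) to 156 when 1 library was left out. edgeR gave 93 and DESeq2 98. The 4 calls at 48 h became 11 with a pseudocount of 1, 2 by edgeR, 13 by DESeq2, 10 with both times in 1 fit, and 3 to 61 when 1 library was left out (46 without induced replicate 2 and 61 without induced replicate 3). With a replicate block by description number there were 429, or 646 with the repeated control as number 2, and with a replicate block by title number 148, or 1 with it as number 3. Only 2 pairs remain at 48 h (r = 0.54 and 0.47). The deviations of the 2 controls are mirror images by construction, so each r has its opposite with the other control. The causes were not tested. Members meeting the list rule went from 16 to 8 at 4 h without control replicate 1 (all genes 166 to 324) and from 29 to 7 at 48 h with the repeated control counted once (all genes 604 to 234), both chosen after seeing the data. Under alternatives, 181 log2 differences of members at their listed time were computed at 4 h and 218 at 48 h. All kept their sign, which the choice favoured, since every induced library of these members lay above every control. Of these values 9 and 30 moved by more than the spread between replicates. Most came from the members that passed the filter at the listed time, 13 of 16 at 4 h and 13 of 29 at 48 h. Low depth limits control replicate 1 most.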
